A study of Gallus gallus with 6 samples.

Results

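Actins, tropomyosins, alpha-actinins and myosins were examined in the germinal disc region and granulosa cells of the hen. A gene was included if its symbol in the annotation of the chicken array was that of an actin (ACTB, ACTG1, ACTG2, ACTA1, ACTA2, ACTC1) or began with MYH or MYL, or with ACTN, TPM or MYO followed by a digit. This gave 61 of the 13009 genes that the array covers with a single symbol. They comprised 6 actins, 3 alpha-actinins, 3 tropomyosins, 11 myosin heavy chains, 15 genes whose symbols begin with MYL and 23 unconventional myosins. The MYL genes hold the myosin light chains, but also the light chain kinases and MYLIP, a ubiquitin ligase that the prefix brought in. Each gene was represented by its probe set with the highest mean over the 6 arrays, and levels are gcrma values on a log2 scale.

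Actin filaments carry tropomyosin along their length and are bundled by alpha-actinin. Myosin II, made of paired heavy chains with essential and regulatory light chains, pulls on these filaments. In smooth muscle and non-muscle cells it is switched on by kinases, such as myosin light chain kinase, that phosphorylate the regulatory chain. Non-muscle myosin II closes the cleavage furrow of dividing cells and acts in the cell cortex, while the unconventional myosins move cargo and membranes along actin. In the bird egg the first cleavages take place in the germinal disc, the cytoplasm at the animal pole of the oocyte.

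RNA was measured in 3 groups of 2 arrays, each array holding tissue pooled from 25 ISA Brown layers aged 60 weeks. Ov GDR is the germinal disc region of ovulated oocytes, F1 GDR the same region of the largest follicle before ovulation, and F1 GCs the granulosa cells of that follicle. Granulosa cells could not be removed completely from F1 GDR, whereas the ovulated oocyte has lost them. The labels name no treatment and no genetic change. In such pools fewer cells of a type and less RNA per cell cannot be told apart.

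Background was read from 23 control probe sets whose targets the chicken lacks, and its level, the highest of these on an array, lay between 2.76 and 3.27. The Ov GDR arrays were the most unlike each other, with an SD of 0.82 for the difference between both arrays of the group over probe sets, against 0.43 for F1 GDR and 0.30 for F1 GCs. The 3′ probe set of EEF1A1 exceeded its 5′ probe set by 4.51 on Ov GDR replicate 1 and by 1.09 to 3.10 on the other 5 arrays, a sign of RNA quality. Of 12 granulosa markers 7 were lower in Ov GDR relative to F1 GDR (limma, Benjamini-Hochberg adjusted p under 0.05), 58.3% against 3.05% of all genes. By the same test 9 were lower in Ov GDR relative to F1 GCs, 75% against 12.2%. CYP11A1, the first enzyme of steroid synthesis, had 2.71 and 3.18 in Ov GDR, 10.73 and 10.13 in F1 GDR and 11.94 and 11.97 in F1 GCs. Of 7 oocyte markers 5 were higher in Ov GDR (71.4%, against 10.1%) and 4 in F1 GDR (57.1%, against 4.34%), each relative to F1 GCs. The study had already reported genes of both lists, such as HSD3B1, NR5A2 and DAZL, as overexpressed on these same arrays. The marker shares were therefore in part fixed in advance. Haemoglobin HBA1, a mark of blood, had 5.76 on F1 GDR replicate 2 and at most 2.55 on the other arrays.

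Of the 61 genes 35 were above background on both arrays of at least 1 group and 24 were so in all 3 groups. Among the 35, the highest mean fell in Ov GDR for 12 genes, in F1 GDR for 9 and in F1 GCs for 14. Of the 12, ACTA2, MYH7 and MYO16 were at background on both Ov GDR arrays, so their place in this tally rests on background values. MYO1D and MYH1D, with Ov GDR means of 3.44 and 3.76, lay close to the Ov GDR background of 3.27 and 3.01. That background was above those of the other groups. Only 11 genes passed the test in any comparison. TPM1, TPM3 and MYH10 were higher in Ov GDR relative to F1 GCs, and ACTN1, TPM2, MYL10, MYL12A, MYLK, MYLIP, MYO10 and MYO3AL were lower. These 3 and 8 genes of 61 stood beside 10.1% of all 13009 genes called higher and 12.2% called lower in that comparison. With the arrays set to equal means of GAPDH and EEF1A1 they became 9 and 5 genes, and with equal means of the hybridization controls 2 and 53. These settings moved the median difference over all probe sets from 0.07 to 0.87 and to −1.30. The counts under them thus include a shift of whole arrays and are no result about these genes alone. Between F1 GDR and F1 GCs, MYH10, TPM1 and MYO3AL were higher and TPM2, MYO10 and MYL10 were lower, against 4.34% of all genes called higher and 3.34% called lower. Between Ov GDR and F1 GDR, ACTN1, MYLIP and MYO3AL were lower, against 3.05% of all genes, and 0 genes were higher, against 0.2%. At an unadjusted p under 0.05 limma gave 6 of the 61 members higher and 10 lower in this last comparison. Over all 38439 probe sets, which unlike the members can include several of a gene, it gave 4303 higher and 2896 lower. An ordinary equal-variance t-test, used in place of the study's test with shared variances, gave 0 adjusted calls of members in either direction for Ov GDR minus F1 GDR. For Ov GDR minus F1 GCs it called ACTN1 and MYLK lower. Leaving out any single array of F1 GDR or F1 GCs left 0 members called for Ov GDR minus F1 GDR and 0 for F1 GDR minus F1 GCs. The median difference of the 61 genes was 0.07 for Ov GDR minus F1 GCs, 0.04 for F1 GDR minus F1 GCs and 0.03 for Ov GDR minus F1 GDR, against 0.08, 0.03 and 0.04 over all genes. These medians include genes at background. In the same order the 35 genes above background had −0.17, 0.04 and −0.21. All genes above background had 0.09, 0.07 and −0.02. The called members moved in opposite directions within the tropomyosins and within the myosins.

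**Figure D1:**
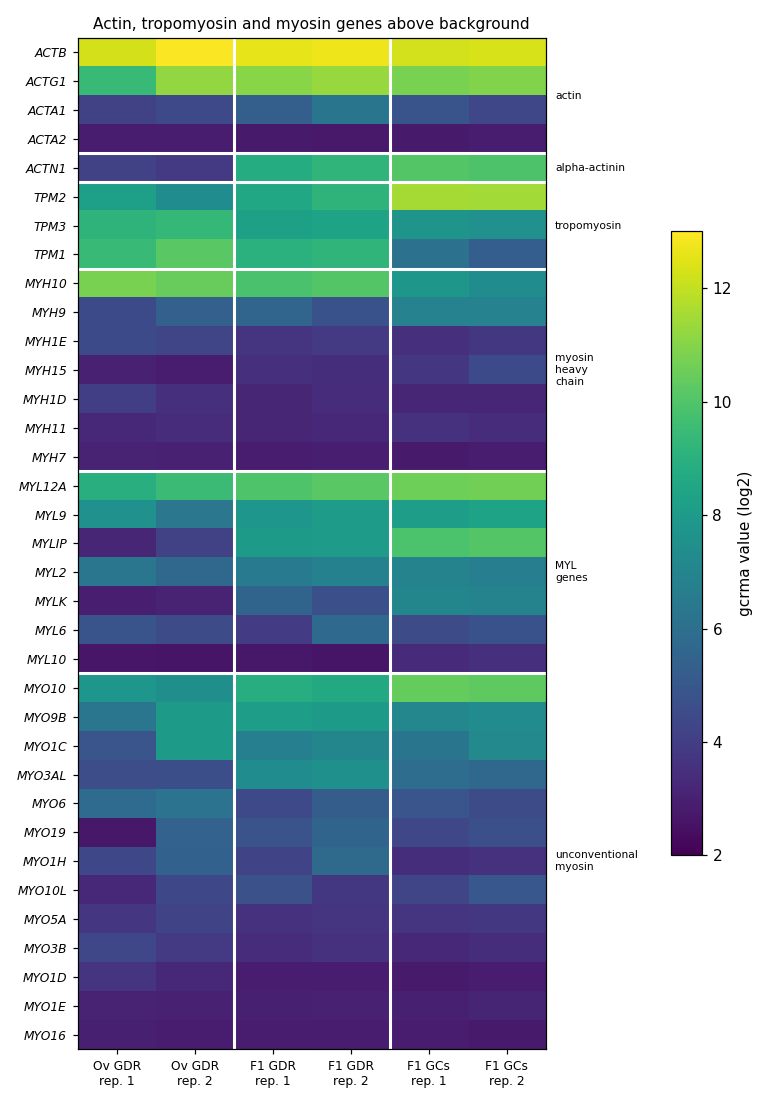
Level of the 35 genes above background on each of the 6 arrays. Columns are the arrays, rows are genes grouped by class, and colour is the gcrma value on a log2 scale, to be read along a row. ACTN1, MYLIP and MYLK are dark on both Ov GDR arrays, and TPM1 and MYH10 are darkest on the F1 GCs arrays.

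None of the actins passed the test in any comparison by its brightest probe set. ACTB, the beta actin of the cytoplasm, had 12.29 and 12.95 in Ov GDR, 12.61 and 12.74 in F1 GDR and 12.27 and 12.35 in F1 GCs. The ranges of Ov GDR and F1 GCs overlapped. The difference between Ov GDR and F1 GCs was 0.31 with a 95% interval of −0.28 to 0.90 (adjusted p = 0.334). It was −1.06 with the arrays set to equal means of the hybridization controls. The difference between Ov GDR and F1 GDR was −0.05, with an interval of −0.64 to 0.54. The next brightest ACTB probe set was called lower in Ov GDR relative to F1 GCs (difference −2.61, adjusted p = 0.0112). That probe set had 3.38 and 3.85 in Ov GDR, 5.15 and 5.52 in F1 GDR and 6.40 and 6.06 in F1 GCs. ACTG1, the gamma actin of the cytoplasm, had 9.44 and 11.22 in Ov GDR, 11.06 and 11.31 in F1 GDR and 10.77 and 10.92 in F1 GCs. Its low value was on Ov GDR replicate 1, and the difference between Ov GDR and F1 GCs was −0.51 (−2.08 to 1.05, adjusted p = 0.529). A further ACTG1 probe set was lower in Ov GDR, with 9.34 and 8.69, than in F1 GCs, with 10.46 and 10.42 (difference −1.43, adjusted p = 0.0282).

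ACTA1, the actin of skeletal muscle, had 4.15 and 4.42 in Ov GDR, 5.32 and 6.28 in F1 GDR and 4.86 and 4.32 in F1 GCs. Both F1 GDR arrays were above the other 4, but the differences of 1.21 from F1 GCs (adjusted p = 0.239) and of −1.52 for Ov GDR minus F1 GDR (adjusted p = 0.187) did not pass the test. ACTA2, the smooth muscle alpha actin, stayed between 2.77 and 2.84 on all 6 arrays and passed the background on both arrays of F1 GCs alone, where the background was lowest. ACTC1, the cardiac actin, and ACTG2, the gamma actin of smooth muscle, were not above background on both arrays of any group, with values between 2.51 and 3.21. At an unadjusted p under 0.05 limma gave 1 of 6 actins lower for Ov GDR minus F1 GDR, beside 2896 of all 38439 probe sets. It gave 1 higher for F1 GDR minus F1 GCs, beside 2995 probe sets, and 0 for Ov GDR minus F1 GCs.

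ACTB also carries control probe sets along its transcript, which show how far the RNA was copied. The 3′ probe set had 12.36 and 12.96 in Ov GDR, 12.61 and 12.68 in F1 GDR and 12.14 and 12.30 in F1 GCs. The 5′ probe set had 7.34 and 11.44 in Ov GDR, 9.96 and 9.11 in F1 GDR and 8.91 and 9.84 in F1 GCs. The 3′ probe set thus exceeded the 5′ probe set by 5.02 on Ov GDR replicate 1, the largest gap, and by 1.53 on Ov GDR replicate 2, the smallest. Both ends of the range thus lay within Ov GDR, and the part of RNA quality in the differences of the other genes was not tested.

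**Figure D2:**
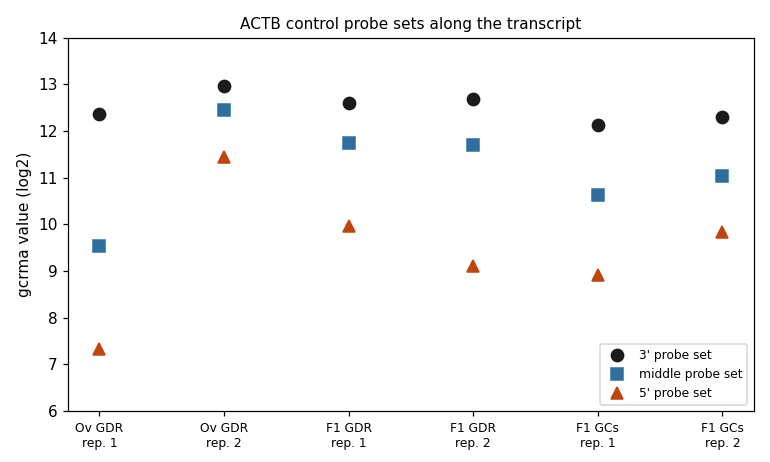
Control probe sets for the 3′ end, the middle and the 5′ end of ACTB. The x axis gives the 6 arrays and the y axis the gcrma value on a log2 scale, with 1 point per probe set and array. The 3′ points lie between 12.14 and 12.96, whereas the 5′ points run between 7.34 on Ov GDR replicate 1 and 11.44 on Ov GDR replicate 2.

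ACTN1, the alpha-actinin of non-muscle cells that crosslinks actin filaments at adhesions and in stress fibres, was lower after ovulation. It had 4.12 and 3.88 in Ov GDR, 8.82 and 9.20 in F1 GDR and 10.04 and 9.94 in F1 GCs. Both Ov GDR arrays were far under the other 4 arrays. The difference was −5.01 ± 0.27 (SE) for Ov GDR minus F1 GDR, 32.3-fold lower (adjusted p = 0.01), and −6.00 ± 0.27 for Ov GDR minus F1 GCs, 63.9-fold lower (adjusted p = 0.00271). For F1 GDR minus F1 GCs it was −0.98 (adjusted p = 0.142). The difference between Ov GDR and F1 GCs was called with every array left out in turn. Another ACTN1 probe set, near background, differed by −0.07 between these groups. The granulosa markers ran in the same direction, with a median of 4.18 and 4.12 on the Ov GDR arrays, 8.97 and 8.62 on those of F1 GDR and 11.02 and 11.10 on those of F1 GCs, and their part in the ACTN1 difference was not tested. The linear values of the 12 markers summed to 3991 to 4670 in Ov GDR, 11183 to 14525 in F1 GDR and 34767 to 36898 in F1 GCs. Such sums follow the brightest genes of the list and do not measure a share of granulosa cells. On Ov GDR replicates 1 and 2, 8 and 9 of the 12 were above background. FOXL2 alone was called higher in Ov GDR relative to F1 GCs. ACTN2, of striated muscle, and ACTN4, the other non-muscle form, were not above background, with values between 2.49 and 3.77.

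The 3 tropomyosins were all above background in every group and did not move together. TPM1 and TPM3 were higher in Ov GDR relative to F1 GCs while TPM2 was lower, and F1 GDR lay between both for each gene. TPM1 had 9.47 and 10.19 in Ov GDR, 9.02 and 9.18 in F1 GDR and 6.16 and 5.29 in F1 GCs. Both germinal disc groups stood well above the granulosa cells. The difference was 4.11 ± 0.42 (SE) for Ov GDR minus F1 GCs, 17.2-fold higher (adjusted p = 0.008), and 3.38 ± 0.42 for F1 GDR minus F1 GCs, 10.4-fold higher (adjusted p = 0.0315). For Ov GDR minus F1 GDR it was 0.73, with a 95% interval of −0.38 to 1.84 (adjusted p = 0.37).

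TPM2 showed the reverse. It had 8.21 and 7.35 in Ov GDR, 8.60 and 9.17 in F1 GDR and 11.52 and 11.46 in F1 GCs. Granulosa cells were above all 4 germinal disc arrays. The difference was −3.71 ± 0.37 for Ov GDR minus F1 GCs, 13.1-fold lower (adjusted p = 0.00737), and −2.61 ± 0.37 for F1 GDR minus F1 GCs, 6.1-fold lower (adjusted p = 0.0363), and it was −1.10 for Ov GDR minus F1 GDR (adjusted p = 0.23). TPM3 had 9.16 and 9.34 in Ov GDR, 8.25 and 8.36 in F1 GDR and 7.68 and 7.58 in F1 GCs. The 3 groups did not overlap, but only the difference of 1.62 ± 0.21 between Ov GDR and F1 GCs, 3.07-fold higher, was called (adjusted p = 0.0129). With an array of F1 GCs left out, TPM2 and TPM3 lost their calls between Ov GDR and F1 GCs (adjusted p up to 0.0626 and 0.115).

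The difference of TPM2 from TPM1 within an array cannot be altered by scaling whole arrays. It differed by −7.82 for Ov GDR minus F1 GCs, where TPM1 and TPM2 moved in opposite directions, and by −1.83 for Ov GDR minus F1 GDR. Of the 8 probe sets of TPM1, 5 were above background in some group, and all 5 were higher in Ov GDR relative to F1 GCs by 2.63 to 4.11, of which 2 passed the test, against 6.51% of all probe sets called higher in that comparison and 8.54% called lower. Of the 6 probe sets of TPM2, 5 were above background, and all 5 were called lower in Ov GDR relative to F1 GCs, by −4.66 to −1.69. Probe sets of the same gene share transcripts and in part probes, so they repeat a measurement of the same pools. The TPM1 probe set with the widest spread had 3.57 and 8.45 in Ov GDR, 6.29 and 6.46 in F1 GDR and 3.26 and 3.49 in F1 GCs, so that Ov GDR replicate 1 was near the level of F1 GCs. TPM3 had a single probe set above background.

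**Figure D3:**
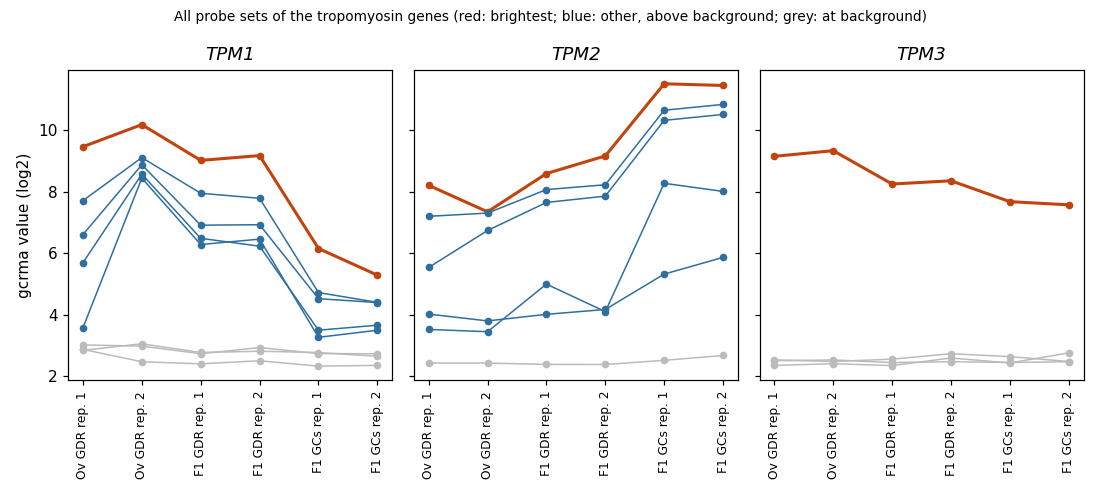
All probe sets of TPM1, TPM2 and TPM3. The x axis gives the 6 arrays, the y axis the gcrma value on a log2 scale, and each line is a probe set, red for the brightest, blue for others above background and grey for those at background. The red TPM1 line lies between 9.02 and 10.19 in the germinal disc arrays and lies between 5.29 and 6.16 in F1 GCs, whereas the red TPM2 line reaches 11.52 in F1 GCs.

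Among the conventional myosin heavy chains, the non-muscle chain MYH10 was higher in the germinal disc by its brightest probe set. MYH10, the heavy chain of myosin IIB, had 10.79 and 10.44 in Ov GDR, 9.85 and 10.07 in F1 GDR and 7.84 and 7.36 in F1 GCs. The order was the same as for TPM1 and no 2 groups overlapped. It was 3.01 ± 0.25 (SE) higher in Ov GDR relative to F1 GCs, 8.08-fold (adjusted p = 0.00524), and 2.36 ± 0.25 higher in F1 GDR relative to F1 GCs, 5.13-fold (adjusted p = 0.027). The difference of 0.65 between Ov GDR and F1 GDR had an interval of 0.00 to 1.30 and an adjusted p of 0.265. MYH9, the heavy chain of myosin IIA, had 4.48 and 5.36 in Ov GDR, 5.60 and 4.75 in F1 GDR and 6.90 and 6.88 in F1 GCs. Both F1 GCs arrays were above the other 4 arrays, but the differences of −1.97 for Ov GDR minus F1 GCs (adjusted p = 0.0581) and −1.72 for F1 GDR minus F1 GCs (adjusted p = 0.137) did not pass the test. A fainter MYH9 probe set, between 3.01 and 3.33 on the arrays, differed by 0.23 for Ov GDR minus F1 GCs (adjusted p = 0.161). The difference of MYH9 from MYH10 within an array differed by −4.98 for Ov GDR minus F1 GCs and by −4.08 for F1 GDR minus F1 GCs, values that have no test here.

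The muscle heavy chains were at or near background. MYH11, of smooth muscle, stayed between 3.18 and 3.57 over the arrays. Of the others, MYH1E had 4.46 and 4.32 in Ov GDR, 3.68 and 3.85 in F1 GDR and 3.54 and 3.77 in F1 GCs, a difference of 0.73 for Ov GDR minus F1 GCs that did not pass the test (adjusted p = 0.0608). MYH1D and MYH7 lay between 2.81 and 4.02. MYH15 had 3.0 and 2.89 in Ov GDR, 3.47 and 3.44 in F1 GDR and 3.75 and 4.46 in F1 GCs (difference between Ov GDR and F1 GCs −1.16, adjusted p = 0.0526). MYH13, MYH1B, MYH1C and MYH7B were not above background in any group. In RefSeq, MYH13, MYH1D, MYH1B, MYH1E and MYH1C are neighbours with no other kind of protein-coding gene between them, and as close copies they may share probes. Of 15 sarcomere genes such as the troponins and titin, 0 were called in any comparison by limma. At an unadjusted p under 0.05, 7 were higher in Ov GDR relative to F1 GCs, beside 8550 of all 38439 probe sets. Above background on both arrays of at least 1 group were 9 of the 15. The medians of the 15 were between 2.78 and 3.06 on the 6 arrays, whose backgrounds lay between 2.76 and 3.27. On the F1 GCs arrays the medians of 2.78 and 2.85 just exceeded those arrays' own backgrounds of 2.76 and 2.78.

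Of the regulatory light chains, MYL12A was the one of non-muscle cells to pass the test. It had 8.95 and 9.52 in Ov GDR, 9.97 and 10.18 in F1 GDR and 10.58 and 10.65 in F1 GCs. The groups did not overlap and the order was that of TPM2. It was 2.6-fold lower in Ov GDR relative to F1 GCs (log2 difference −1.38 ± 0.23, adjusted p = 0.024), a call lost on leaving out any array of F1 GDR or F1 GCs (adjusted p up to 0.153). MYL9, the regulatory chain of smooth muscle and non-muscle cells, had 7.55 and 6.35 in Ov GDR, 7.77 and 8.03 in F1 GDR and 8.13 and 8.38 in F1 GCs (difference between Ov GDR and F1 GCs −1.31, adjusted p = 0.128). MYL6, the essential light chain of these myosins, had 4.84 and 4.5 in Ov GDR, 3.97 and 5.78 in F1 GDR and 4.54 and 4.78 in F1 GCs, with overlap among all groups. MYL2, the regulatory chain of the heart ventricle, was above background on all arrays, with 6.34 and 5.73 in Ov GDR, 6.54 and 6.84 in F1 GDR and 6.90 and 6.70 in F1 GCs, and was not called. MYL10, a further regulatory chain, was at background in Ov GDR, with 2.65 and 2.63, and in F1 GDR, with 2.72 and 2.63, and just above it in F1 GCs, with 3.35 and 3.48. This made it at least 1.21-fold lower in Ov GDR relative to F1 GCs and at least 1.48-fold lower in F1 GDR relative to F1 GCs (adjusted p = 0.00828 and 0.0283). With the arrays set to equal means of GAPDH and EEF1A1 the difference between Ov GDR and F1 GCs turned to 0.023.

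MYLK, a kinase that switches on smooth muscle and non-muscle myosin II through the regulatory light chain, was lower in Ov GDR. It had 2.94 and 3.09 in Ov GDR, 5.55 and 4.68 in F1 GDR and 7.04 and 6.93 in F1 GCs. The groups were separate, with Ov GDR at background on replicate 1 and just above it on replicate 2. The difference between Ov GDR and F1 GCs was −3.97 ± 0.36 (adjusted p = 0.00632), with 1 of the 2 Ov GDR arrays above background. The steps of −2.10 for Ov GDR minus F1 GDR (adjusted p = 0.0817) and −1.88 for F1 GDR minus F1 GCs (adjusted p = 0.0629) did not pass the test. The next brightest MYLK probe set ran the other way, with 3.85 and 3.68 in Ov GDR and 3.19 and 3.09 in F1 GCs (difference 0.62, adjusted p = 0.0372), and without F1 GCs replicate 2 the first probe set lost its call (adjusted p = 0.0512). MYLIP, a ubiquitin ligase known in mammals for the removal of the LDL receptor, had 3.18 and 4.12 in Ov GDR, 7.99 and 8.05 in F1 GDR and 9.90 and 10.05 in F1 GCs. Its profile resembled that of ACTN1, with both Ov GDR arrays near background. The difference was −6.33 ± 0.39 for Ov GDR minus F1 GCs (adjusted p = 0.00335) and −4.37 ± 0.39 for Ov GDR minus F1 GDR (adjusted p = 0.0218), with 1 of the 2 Ov GDR arrays above background. MYL1, MYL3, MYL4, MYLPF, MYLK2, MYLK3, MYLK4 and MYLKSML were not above background, with values between 2.11 and 4.05.

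**Figure D4:**
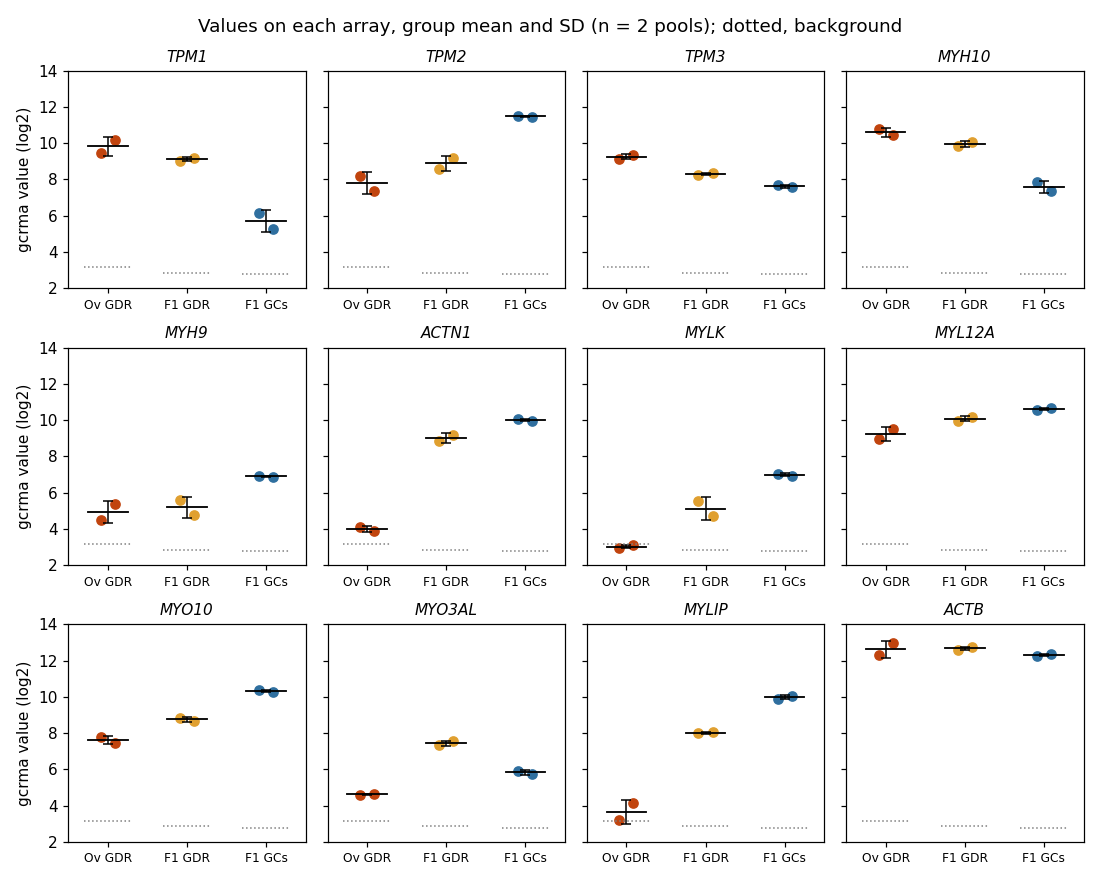
Values of 12 genes in the 3 groups. The y axis is the gcrma value on a log2 scale, points are arrays, the bar and whiskers are the mean and SD of 2 pools, and the dotted line is the mean background of the group. TPM1 and MYH10 are lowest in F1 GCs, while ACTN1, MYLIP and MYLK are lowest in Ov GDR and ACTB stays between 12.27 and 12.95.

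The unconventional myosins gave 2 called genes among 23, MYO10 and MYO3AL, with different profiles. Both were lower for Ov GDR minus F1 GCs, 8.70% of the 23 against 12.2% of all genes. MYO10, which in mammals is found at the tips of filopodia, had 7.76 and 7.46 in Ov GDR, 8.84 and 8.67 in F1 GDR and 10.38 and 10.28 in F1 GCs. The 3 groups were separate, in the order of TPM2. It was 6.6-fold lower in Ov GDR relative to F1 GCs (difference −2.72 ± 0.20, adjusted p = 0.00431) and 2.99-fold lower in F1 GDR relative to F1 GCs (−1.58 ± 0.20, adjusted p = 0.0315). Of its 4 probe sets, all above background, 2 were called lower in both comparisons with F1 GCs, against 3.09% of all probe sets for F1 GDR minus F1 GCs. The probe set with the lowest mean had 7.02 and 4.91 in Ov GDR, 4.0 and 2.90 in F1 GDR and 5.46 and 5.82 in F1 GCs, where Ov GDR replicate 1 was the highest array.

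MYO3AL, a gene annotated as like the class III myosins, which carry a kinase domain, was highest in F1 GDR. It had 4.61 and 4.63 in Ov GDR, 7.33 and 7.54 in F1 GDR and 5.93 and 5.72 in F1 GCs. It was the one member called in all 3 comparisons and neither end of the series held its highest value. It was 7.05-fold lower in Ov GDR relative to F1 GDR (difference −2.82 ± 0.27, adjusted p = 0.0239), 3.05-fold higher in F1 GDR relative to F1 GCs (1.61 ± 0.27, adjusted p = 0.0478) and 2.31-fold lower in Ov GDR relative to F1 GCs (−1.21 ± 0.27, adjusted p = 0.0496). The third call was lost without any of 5 arrays, Ov GDR replicate 2 being the exception (adjusted p up to 0.294).

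Another 11 unconventional myosins were above background and not called by their brightest probe sets, with differences between −0.81 and 1.41 for Ov GDR minus F1 GCs. MYO6, which moves towards the minus end of actin filaments, had 5.85 and 6.20 in Ov GDR, 4.41 and 5.25 in F1 GDR and 4.88 and 4.52 in F1 GCs. Both Ov GDR arrays were above the other 4, but the difference of 1.32 from F1 GCs had an adjusted p of 0.0917. In 3 genes the Ov GDR arrays were far apart, replicate 1 being the lower. MYO1C had 4.91 and 7.99 in Ov GDR, 6.76 and 7.03 in F1 GDR and 6.26 and 7.20 in F1 GCs. MYO9B had 6.32 and 8.0 in Ov GDR, 8.13 and 7.98 in F1 GDR and 7.11 and 7.30 in F1 GCs. MYO19, of mitochondria, had 2.69 and 5.46 in Ov GDR, 4.83 and 5.56 in F1 GDR and 4.36 and 4.69 in F1 GCs. Ov GDR replicate 1 was also the array with the widest gap between 3′ and 5′ probe sets, and its part in these gaps was not tested. These 4 genes were chosen after their values were seen. A fainter MYO1C probe set had 3.18 and 2.95 in Ov GDR, 2.89 and 2.92 in F1 GDR and 5.09 and 5.08 in F1 GCs, and was called lower in both germinal disc groups. It was at background in Ov GDR and at least 3.84-fold lower there relative to F1 GCs (adjusted p = 0.00422), and it differed by −2.18 for F1 GDR minus F1 GCs (adjusted p = 0.0192). A fainter MYO9B probe set had 2.52 and 2.56 in Ov GDR, at background, 2.84 and 2.53 in F1 GDR and 3.39 and 3.92 in F1 GCs. It was at least 1.43-fold lower in Ov GDR relative to F1 GCs (adjusted p = 0.0351). A further MYO9B probe set differed by 0.44 there and was not called. The other 10 unconventional myosins were not above background, with values between 2.30 and 3.40.

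**Figure D5:**
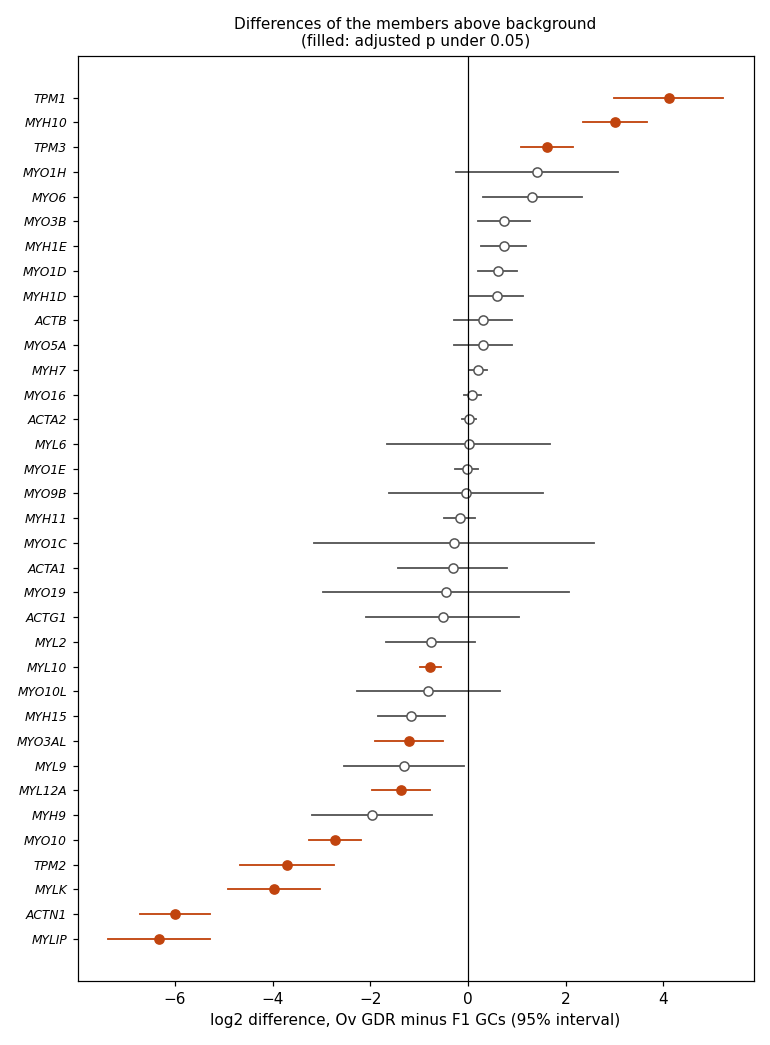
Difference between Ov GDR and F1 GCs for the 35 genes above background. The x axis is the log2 difference, Ov GDR minus F1 GCs, lines are 95% intervals of the limma fit, and filled red points are the genes called. TPM1, MYH10 and TPM3 lie on the right with 1.62 to 4.11, and MYLIP and ACTN1 lie at the far left with −6.33 and −6.00.

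The switches and partners of actomyosin were described by lists of other genes. Of 23 regulators of actomyosin, 5 were higher in Ov GDR relative to F1 GCs (21.7%, against 10.1% of all genes) and 3 were lower (13%, against 12.2%). The 5 were CIT, ANLN, RACGAP1, DIAPH3 and PPP1R12A, named here after their values were seen. CIT, citron kinase, works with ANLN, anillin, and with RACGAP1 in the cleavage furrow and midbody, DIAPH3 is a formin that nucleates straight actin filaments, and PPP1R12A is the subunit that targets the phosphatase to myosin. CIT had 7.93 and 7.04 in Ov GDR, 5.28 and 4.19 in F1 GDR and was at background with 2.39 and 2.40 in F1 GCs, so that it was at least 26.3-fold higher in Ov GDR relative to F1 GCs (adjusted p = 0.00744). ANLN had 8.55 and 9.24 in Ov GDR, 8.36 and 8.84 in F1 GDR and 4.60 and 3.55 in F1 GCs (Ov GDR minus F1 GCs 4.82, adjusted p = 0.00825). RACGAP1 followed with 7.71 and 8.33 in Ov GDR, 8.91 and 9.32 in F1 GDR and 5.02 and 3.70 in F1 GCs (3.66, adjusted p = 0.0199).

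RHOB, a small GTPase, had another pattern. It was at background in Ov GDR, with 2.72 and 2.68, and had 8.03 and 7.53 in F1 GDR and 6.05 and 5.69 in F1 GCs. It was thus at least 24.8-fold lower in Ov GDR relative to F1 GDR (adjusted p = 0.0115) and at least 6.62-fold lower than in F1 GCs (adjusted p = 0.00711), and it was highest in F1 GDR, as was MYO3AL. CNN3, a calponin, and PPP1CB, a catalytic subunit of the phosphatase, were lower in Ov GDR relative to F1 GCs, by −1.32 and −0.91. Between Ov GDR and F1 GDR, 1 regulator was higher, DIAPH3, with 6.56 and 6.50 in Ov GDR and 3.87 and 2.76 in F1 GDR (3.21, adjusted p = 0.0435), and RHOB was the only one lower. DIAPH3 and RHOB were each 4.35% of the 23, against 0.2% of all genes higher and 3.05% lower. Between F1 GDR and F1 GCs, ANLN, RACGAP1 and RHOB were higher (13%, against 4.34% of all genes) and 0 were lower (against 3.34%). At an unadjusted p under 0.05 limma gave 1 lower, beside 3878 of all 38439 probe sets. The median of the 23 differences between Ov GDR and F1 GCs was 0.14, and 0.20 over the 21 genes above background.

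Of 36 genes of actin assembly and turnover, 4 were higher in Ov GDR relative to F1 GCs and 3 were lower. These shares of 11.1% and 8.33% were near the 10.1% and 12.2% of all genes. TMSB4X, thymosin beta, which binds actin monomers, had 11.66 and 12.41 in Ov GDR, 11.77 and 11.71 in F1 GDR and 8.95 and 8.85 in F1 GCs. The F1 GCs arrays were under all germinal disc arrays (differences 3.13 for Ov GDR and 2.84 for F1 GDR, adjusted p = 0.00524 and 0.0244). GSN, gelsolin, which severs filaments, had 3.96 and 4.60 in Ov GDR, 6.40 and 6.58 in F1 GDR and 7.08 and 6.97 in F1 GCs, and was lower in Ov GDR relative to F1 GCs by −2.75 (adjusted p = 0.0116). Between Ov GDR and F1 GDR 0 of the 36 were called by limma. At an unadjusted p under 0.05, 3 were higher and 1 was lower there, beside 4303 and 2896 of all 38439 probe sets. Between F1 GDR and F1 GCs 3 were higher (8.33%, against 4.34% of all genes) and 1 was lower (2.78%, against 3.34%). The median of the 36 differences between Ov GDR and F1 GCs was 0.05, and −0.16 over the 31 genes above background.

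Of 22 genes that crosslink filaments or anchor them to membranes and adhesions, 6 were lower in Ov GDR relative to F1 GCs (27.3%, against 12.2% of all genes) and 3 were higher (13.6%, against 10.1%). The median difference was −0.28 over the 22 and −0.85 over the 19 above background. PDLIM4 and PDLIM5, PDZ and LIM domain proteins, were the 2 with the largest differences. PDLIM4 had 3.52 and 3.73 in Ov GDR, 8.38 and 7.92 in F1 GDR and 10.35 and 10.36 in F1 GCs. Its levels followed the order of ACTN1, and it was lower in Ov GDR relative to F1 GDR (−4.53, adjusted p = 0.0119) and than in F1 GCs (−6.73, adjusted p = 0.00268). PDLIM5 was at background in Ov GDR, with 2.41 and 2.40, and had 4.54 and 3.91 in F1 GDR and 6.89 and 7.18 in F1 GCs, at least 14.9-fold lower in Ov GDR relative to F1 GCs (adjusted p = 0.00339). Vinculin (VCL), which joins actin to adhesions, had 4.65 and 4.53 in Ov GDR, 6.31 and 6.61 in F1 GDR and 7.86 and 8.15 in F1 GCs (Ov GDR minus F1 GCs −3.42, adjusted p = 0.00556), and was chosen after its value was seen. Between F1 GDR and F1 GCs 1 gene of this list was higher (4.55%, against 4.34% of all genes) and 4 were lower (18.2%, against 3.34%). Between Ov GDR and F1 GDR PDLIM4 alone was called (4.55% lower, against 3.05%).

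Markers of other cells that a dissection could hold were also read. Of 5 smooth muscle markers, DES and TAGLN were not above background on both arrays of any group. SYNM, an intermediate filament protein, was lower in Ov GDR, with 3.35 and 3.39, than in F1 GCs, with 6.69 and 6.59 (difference −3.27, adjusted p = 0.00378). It was the only one of the 5 called there (20%, against 12.2% of all genes). For F1 GDR minus F1 GCs 1 of the 5 was called lower (20%, against 3.34%). The linear gcrma values of the 5 summed to 48.4 and 43.0 in Ov GDR, 46.5 and 50.3 in F1 GDR and 147 and 149 in F1 GCs. Most of the sum in F1 GCs came from SYNM. Of the smooth muscle genes among the members, ACTA2 and MYH11 were at or near background in all groups. In F1 GCs, however, MYLK had 7.04 and 6.93, and MYL9, of smooth muscle and non-muscle cells, had 8.13 and 8.38. Of 17 markers of theca, stroma, blood and endothelium, CYP17A1, of the androgen-producing theca, was at most 2.63 on every array. CD74 and COL1A2 were lower in Ov GDR relative to F1 GCs (11.8% of the 17, against 12.2% of all genes). The linear values of the 17 summed to 182 and 148 in Ov GDR, 551 and 582 in F1 GDR and 1118 and 770 in F1 GCs, and 8 of the 17 were above background on both arrays of some group. The part of these cells in the differences of TPM2, MYLK and MYO10 was not tested.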

How the data were processed

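The 6 RNA pools were each measured on an Affymetrix chicken array, 2 per group. The authors normalized the arrays with gcrma, and the deposited log2 values per probe set were used without further scaling. One column, F1 GDR replicate 2, is given to 2 decimals, and its versions of R and gcrma are not given in the sources used. The arrays carry 38535 probe sets, and 96 of them, the manufacturer's controls, were not tested. Gene symbols came from GEO's annotation of the platform, in which 27168 probe sets carry a single symbol. The 61 genes had 142 tested probe sets, 34 genes having several, and 4 probe sets with several symbols that include a myosin were not used. Of the 61, 59 matched RefSeq by Entrez ID and 0 changed symbol. By suffix, 10 of the representing probe sets can share probes with other transcripts, 2 may match others in part and 6 cover several transcripts of the gene.

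A linear model of the 6 arrays in 3 groups was fitted with limma 3.58.1 (R 4.3.3). It left 3 residual degrees of freedom, to which variance moderation with a mean-variance trend added 1.66. A gene was called, and "higher" or "lower" used of it, at a Benjamini-Hochberg adjusted p under 0.05 over 38439 probe sets. The script was tested on simulated data. The number of arrays limits the precision, since 2 against 2 arrays allow an exact permutation p of 0.333 at the smallest, and array signals give no count depth. A gene counts as above background in a group where both arrays exceed the highest of 23 foreign control probe sets. Where a group lies at background on both arrays, the fold is given as "at least" the other group's mean over the background.

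The genes with a value on every array are the actins, the members called in a comparison, the non-muscle myosin II chains, tropomyosins and alpha-actinins above background, and the 2 called genes with the largest difference of each other list. The other genes given with values, among them MYL2, MYH1E and MYH15, were chosen after their values were seen or are cell type markers. The members and lists were chosen with earlier results of these data known. Both labels of a group differ by a suffix only. The alternatives were a fit without trend, a fit of only 4 arrays per comparison, a block for the suffix, a filter on a mean log2 of 4, scaling to GAPDH and EEF1A1, the t-test of the study's methods with equal variances in place of its shared variance classes, Bonferroni adjustment, a minimum difference of 1, the next brightest probe set and each array left out. Scaling to the hybridization controls was added after seeing the data. The chicken sequences of the genes were not used here.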

Additional observations from a re-analysis of the deposited data

How the results depend on the processing

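Counts of called members are given in the order higher and lower for Ov GDR minus F1 GDR, then F1 GDR minus F1 GCs, then Ov GDR minus F1 GCs, where the fit described gave 0 and 3, 3 and 3, and 3 and 8. Without the mean-variance trend they were 1 and 4, 4 and 3, and 4 and 8. With only the 4 arrays compared they were 0 and 0, 3 and 4, and 4 and 6. With a filter on a mean log2 of 4 they were 0 and 5, 3 and 6, and 3 and 9. A minimum difference of 1 gave 0 and 3, 3 and 2, and 3 and 7. The next brightest probe set, known for 34 of the 61 genes, gave 0 and 0, 1 and 3, and 3 and 5. The ordinary equal-variance t-test, used in place of the study's test, gave 0 and 0, 0 and 0, and 0 and 2 with Benjamini-Hochberg adjustment. That t-test and limma both gave 0 calls with Bonferroni adjustment. The shares called over all probe sets in these settings are not given here. These counts and those below are thus not set against them and are no result about the members alone.

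Leaving out an array in turn gave 0 to 8 higher and 0 to 8 lower for Ov GDR minus F1 GDR, 0 to 3 and 0 to 4 for F1 GDR minus F1 GCs, and 2 to 15 and 3 to 11 for Ov GDR minus F1 GCs. The calls were fewest without F1 GCs replicate 2 and most without Ov GDR replicate 2, which leaves a lone Ov GDR array assumed to vary like the other groups. Of the 20 calls of single members, 5 were kept whichever of the 6 arrays was dropped, those of ACTN1, MYH10, MYL10, MYLIP and TPM1 for Ov GDR minus F1 GCs. MYLK and MYO10 were lost in that comparison without F1 GCs replicate 2 alone (adjusted p = 0.0512 and 0.05002).

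Deviations of arrays with the same suffix correlated at −0.15 for Ov GDR with F1 GDR and −0.21 for F1 GDR with F1 GCs. For Ov GDR with F1 GCs the correlation was 0.24. The signs were mixed, and each group gave only the difference between both its arrays. Whether the suffix pairs the arrays therefore cannot be decided from these values. With the suffix as a replicate block the fit gave 0 and 0, 0 and 0, and 3 and 7 called members.

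Scaling moved the median of all probe sets and the split of calls. Equal means of GAPDH and EEF1A1 shifted that median to 0.71, 0.15 and 0.87 for Ov GDR minus F1 GDR, F1 GDR minus F1 GCs and Ov GDR minus F1 GCs, and gave 0 and 3, 2 and 1, and 9 and 5 members. Equal means of the hybridization controls, whose level fell in the order Ov GDR, F1 GDR, F1 GCs, shifted it to −0.74, −0.57 and −1.30 and gave 0 and 42, 2 and 30, and 2 and 53. All but 3 of the 20 calls kept their sign in every alternative. The 3 were for Ov GDR minus F1 GCs, MYL10 at 0.023 with GAPDH and EEF1A1, and MYLK at 0.62 and TPM3 at −0.055 with the next brightest probe set. That probe set also turned ACTB to −2.61 for Ov GDR minus F1 GCs and MYO1C to −2.18 for F1 GDR minus F1 GCs. With the hybridization controls, members that were not called turned sign. For Ov GDR minus F1 GDR they were ACTA2 (−0.75), ACTC1 (−0.76), ACTG2 (−0.69), MYH11 (−0.67), MYH7 (−0.62), MYO16 (−0.74) and MYO1E (−0.76). For F1 GDR minus F1 GCs they were ACTC1 (−0.47), MYH7 (−0.54) and MYO16 (−0.55). For Ov GDR minus F1 GCs they were ACTA2 (−1.35), ACTB (−1.06), ACTC1 (−1.23), MYH1D (−0.79), MYH7 (−1.17), MYL6 (−1.36), MYO16 (−1.28), MYO1D (−0.76) and MYO5A (−1.06). The cause of these changes was not tested.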
